A study of Mus musculus with 15 samples.

Results

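Of the 15 libraries of this series, 6 held abundant RNA of sympathetic neurons and 9 held little. The 6 were chosen by their own values: the annotated transcripts of Th were summed in each library, and libraries with at least 10 FPKM of Th, a measure of fragments scaled to transcript length and library size, were set against the rest. Th, which encodes the enzyme of the rate-limiting step of noradrenaline synthesis, stood at 82.1 and 69.8 FPKM in NS 2 and NS 3, at 107, 13.5 and 85.4 FPKM in AngII 6, AngII 7 and AngII 9, and at 106 FPKM in Lien 11. In the other 9 it ran from 0 to 6.25 FPKM with a median of 0.128. The library just inside the threshold was AngII 7 with 13.5 FPKM and the one just outside was AngII 8 with 6.25 FPKM. These libraries are called Th-high and Th-low here.

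All libraries were made from tissue labelled as vascular, from C57BL/6 mice aged 10 weeks, after depletion of ribosomal RNA, with 5 libraries in each of 3 groups. The NS group is labelled normal, the AngII group hypertensive, and the Lien group hypertensive with Lien added. AngII is angiotensin II, a hormone that raises blood pressure, and the series title gives Lien as liensinine, an alkaloid of lotus. The Th-high libraries were 2 of NS, 3 of AngII and 1 of Lien, so both kinds occurred in every group, but the Lien group had only Lien 11 on the Th-high side. The labels give no artery, no dose and no statement that each library came from a separate mouse, and their note on extraction speaks of hearts where the sample labels say vascular tissue. Smooth muscle genes were abundant in both kinds of library: Acta2, smooth muscle actin, ran from 624 to 1928 FPKM in the Th-high and from 188 to 1764 FPKM in the Th-low libraries, and the smooth muscle myosin Myh11 from 146 to 379.8 and from 49.1 to 455 FPKM.

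Arteries receive postganglionic sympathetic fibres whose cell bodies lie in ganglia beside the vertebral column and in front of the aorta. These neurons turn tyrosine into dopa with Th, dopa into dopamine with Ddc and dopamine into noradrenaline with Dbh, load it into vesicles with Slc18a2 and take it up again after release with Slc6a2. They depend on growth factors from their target tissues, and Ngfr is one of the receptors through which these act. In bulk tissue, fewer cells of a type and less RNA per cell cannot be told apart, so every level below is that of a whole piece of tissue.

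The promoters of Th, which chose the libraries, and of Dbh are shown. Both genes are among the 12 largest differences above, and their levels ran in step across the libraries. Each is a window of 300 bases from RefSeq (GRCm38.p6), from 250 bases before the start site to 50 after it, on chr7:142899946-142900245 (minus strand) for Th and on chr2:27165257-27165556 (plus strand) for Dbh, written in the direction of transcription. Capitals mark the cAMP response element TGACGTCA, which is its own reverse complement, and the core ATTA, or TAAT on the other strand, found in many homeodomain sites, such as those of Phox2a.
Th: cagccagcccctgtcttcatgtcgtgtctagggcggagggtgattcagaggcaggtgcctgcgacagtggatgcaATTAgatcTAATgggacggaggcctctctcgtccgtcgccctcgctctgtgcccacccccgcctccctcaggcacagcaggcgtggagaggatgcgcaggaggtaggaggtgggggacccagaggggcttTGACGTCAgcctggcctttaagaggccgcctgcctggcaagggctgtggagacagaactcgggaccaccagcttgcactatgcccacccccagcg
Dbh: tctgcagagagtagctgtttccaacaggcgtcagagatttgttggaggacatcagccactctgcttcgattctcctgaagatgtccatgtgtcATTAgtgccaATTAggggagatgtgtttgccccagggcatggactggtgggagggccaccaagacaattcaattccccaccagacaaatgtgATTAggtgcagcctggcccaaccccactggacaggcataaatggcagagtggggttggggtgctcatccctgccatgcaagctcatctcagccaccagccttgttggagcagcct
The TGACGTCA of Th began 45 bases before the start site, and the ATTA and TAAT cores of Th 175 and 167 bases before it. In Dbh the ATTA cores began 157, 147 and 65 bases before the start site. Among all 32851 promoter windows of this length 1.79% hold TGACGTCA and 58% hold ATTA or TAAT, so the short core is common. Of the 12 genes leading the difference 9 had a window, of which 1 held TGACGTCA (Th) and 5 held the core (Dbh, Ddc, Pcsk1n, Stmn3 and Th). These are matches of letters in a window and no measure of binding.

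**Figure D1:**
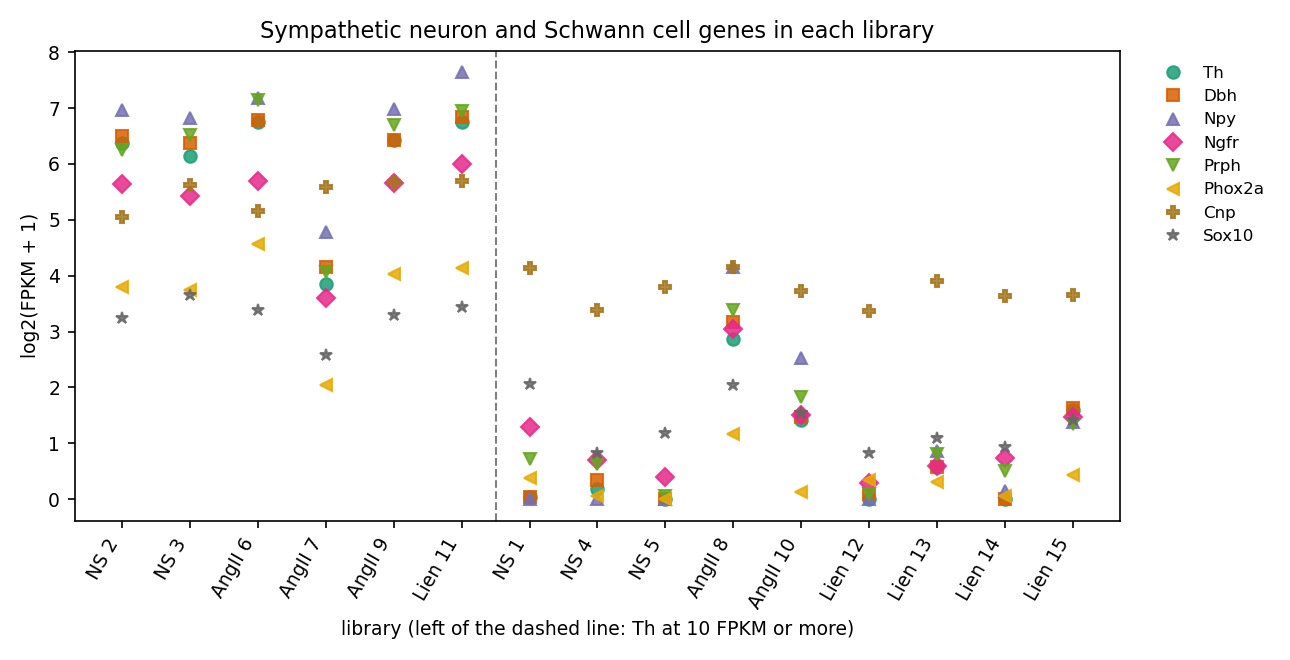
Levels of 6 neuronal genes (Th, Dbh, Npy, Ngfr, Prph, Phox2a) and 2 Schwann cell genes (Cnp, Sox10) as log2(FPKM + 1) on the vertical axis in each of the 15 libraries on the horizontal axis, one symbol per gene, with the 6 Th-high libraries left of the dashed line. AngII 7 (Th 13.5 FPKM) and AngII 8 (6.25 FPKM) lie between the remaining Th-high libraries and the rest for the neuronal genes, while Cnp in AngII 7 (47.0 FPKM) lies within the range of the other Th-high libraries.

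Genes of noradrenaline synthesis, storage and uptake were higher in every Th-high library than in any Th-low library. This held for 7 of 7 genes, Th itself included, where 8.14% of all 15586 genes tested (1268) showed it, and for the reverse, all Th-high below all Th-low, 0.622% (97; 174 without NS 2 and 236 without AngII 10). These shares are descriptions, with no p-value, because the values that chose the libraries come from the same comparison. They also depend on how libraries are scaled: after quantile normalization 485 genes lay wholly above and 431 wholly below, and after scaling to a common median 356 and 712. The median gene was 0.23 higher in the Th-high libraries on the log2(FPKM + 1) scale, with 75.8% of genes on the higher side, so a list is read against that shift. Members that reach 0.5 FPKM in fewer than 5 Th-low libraries entered the tested genes only with the help of the Th-high libraries. The filter thus favours members that are higher there. That holds for 42 of 73 tested nerve genes and 4 of 22 tested glia genes, so the counts and medians of these lists describe the members that passed and support nothing further.

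Dbh followed Th closely, at 89.6 and 82.4 FPKM in NS 2 and NS 3, 109.9, 16.8 and 85.2 in AngII 6, AngII 7 and AngII 9, and 113 in Lien 11. In the Th-low libraries Dbh stood at 7.96 FPKM in AngII 8, 2.11 in Lien 15, 1.79 in AngII 10 and at most 0.481 in the other 6. Its log2 difference between Th-high and Th-low libraries, with treatment group as a term, was 5.23 (SE 0.61). Ddc differed by 4.73 (SE 0.55) and ran from 13.7 to 89.4 FPKM in the Th-high libraries, with a highest Th-low value of 6.67 FPKM, again in AngII 8. The vesicular transporter Slc18a2 ran from 5.63 to 30.1 against 0.464 to 2.91 FPKM, and Maoa, which degrades noradrenaline, from 10.5 to 44.3 against 3.85 to 7.43 FPKM. The noradrenaline transporter Slc6a2 was listed at 4.68 FPKM in NS 2, 24.7 in NS 3, 19.5 in AngII 6, 4.14 in AngII 7 and 45.7 in both AngII 9 and Lien 11, and at no more than 1.58 in the Th-low libraries. Fragments placed on assembled transcripts without a gene name are not in these levels, so whether the steps between libraries are those of the gene was not tested.

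The transcription factors of the sympathetic lineage had a median difference of 1.90 over 8 genes, of which 4 did not overlap between the libraries. Phox2a, a homeodomain factor that specifies noradrenergic neurons, differed by 3.41 (SE 0.37). It ran from 3.10 to 22.7 FPKM in the Th-high libraries and did not exceed 1.25 FPKM in the others. Hand2, which maintains the noradrenergic program, stood at 17.2 to 24.8 FPKM in 5 of the Th-high libraries, but its 3.01 in AngII 7 lay just below the 3.06 of AngII 8. Gata2, a factor also of endothelium and blood cells, overlapped fully, at 2.64 to 10.9 against 5.13 to 7.22 FPKM (log2 difference 0.17, SE 0.23).

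All 8 genes of cotransmitters and granule proteins lay wholly above, with a median difference of 3.39. Npy, the vasoconstrictor neuropeptide released with noradrenaline, had the largest difference of all named genes, 5.47 (SE 0.71): it stood at 124 and 112 FPKM in NS 2 and NS 3, at 143, 26.7 and 126 in the AngII libraries 6, 7 and 9, and at 199 in Lien 11, against 16.7 in AngII 8, 4.79 in AngII 10 and at most 1.60 in the other 7. Chga and Scg2, matrix proteins of dense core granules, ran from 4.05 to 29.9 and from 2.69 to 25.9 FPKM, against at most 0.771 and 2.48. The neuropeptide galanin (Gal) was more uneven, at 3.91 FPKM in NS 2 and 22.3 in AngII 6.

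Receptors of preganglionic input and of growth factors were likewise higher. The nicotinic subunits Chrna3 and Chrnb4, which form the ganglionic acetylcholine receptor, differed by 3.31 (SE 0.40) and 2.54 (SE 0.31), and 3 of 5 subunits lay wholly above. Ngfr, a neurotrophin receptor that Schwann cells also make, ran from 11.1 to 63.0 against 0.228 to 7.29 FPKM (4.10, SE 0.51). Ret, the signalling receptor of the GDNF family, ran from 1.88 to 12.2 against 0.318 to 1.21 FPKM. Ntrk2 and Ntrk3, receptors of BDNF and neurotrophin 3, overlapped, with differences of 0.63 (SE 0.57) and -0.28 (SE 0.37). The ligands did not share the pattern: over 5 tested neurotrophin and GDNF family ligands the median was -0.01, no gene was free of overlap.

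Among 16 genes of the neuronal cytoskeleton and axon, 13 lay wholly above and the median difference was 2.89. Tubb3, neuronal tubulin, ran from 20.95 to 142 against 0.101 to 11.8 FPKM (5.20, SE 0.62), and Prph, the intermediate filament of peripheral neurons, from 15.8 to 141 against 0.0420 to 9.44 FPKM (5.04, SE 0.62). Gap43, a growth cone protein, and Stmn3, a tubulin-binding protein, differed by 4.14 and 4.45. In the vesicle release list 9 of 13 lay wholly above, led by the SNARE protein Snap25 (9.41 to 69.2 against 0 to 4.27 FPKM, log2 difference 4.65, SE 0.51). Among ion channels Scn9a, a sodium channel of peripheral neurons, ran from 0.491 to 3.40 against 0 to 0.246 FPKM and Cacna1b, the N-type calcium channel, from 1.37 to 4.14 against 0 to 0.300 FPKM. Both passed the filter through the Th-high libraries alone.

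**Figure D2:**
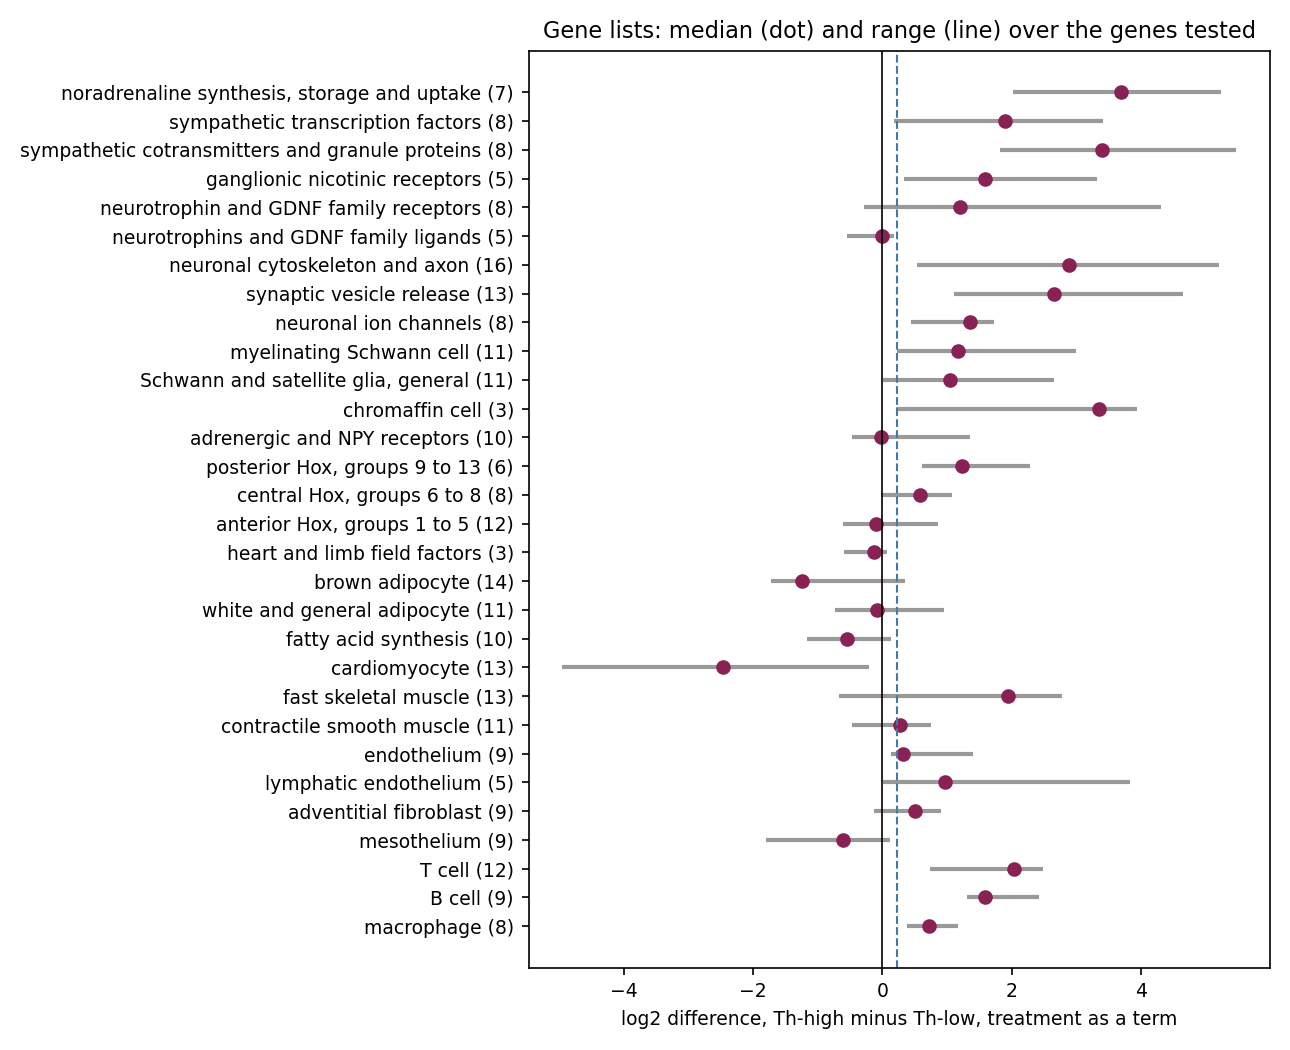
Difference between Th-high and Th-low libraries on log2(FPKM + 1), horizontal axis, with treatment as a term, for each gene list with at least 3 tested genes (vertical axis, number tested in brackets). Dots are medians, grey lines run from the lowest to the highest gene, and the dashed blue line marks the median of all genes tested, 0.23; neuronal lists reach medians of 1.20 to 3.68 and cardiomyocyte genes -2.46.

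Lists of other neurons and of the adrenal gland gave mixed values. The 9 matched sensory neuron genes summed to 3.05 to 18.6 FPKM in the Th-high and 1.21 to 3.39 FPKM in the Th-low libraries. Scn10a, Trpv1, Tac1 and Pou4f1 did not exceed 0.288 FPKM in any Th-high library, and 2 of the 9 were abundant enough to be tested. Of these Calca, the precursor of CGRP, overlapped (0.223 to 1.91 against 0.128 to 1.30 FPKM), and Avil, an actin-binding protein of peripheral neurons, lay wholly above (2.53 to 17.0 against 0.0892 to 1.66 FPKM). Chat, which makes acetylcholine, did not exceed 0.263 FPKM, while the peptide gene Vip ran from 0.156 to 9.59 FPKM in the Th-high libraries, highest in AngII 6. Pnmt, which turns noradrenaline into adrenaline in chromaffin cells, did not exceed 0.245 FPKM in the Th-high libraries, where Th reached 107 FPKM, and was listed at up to 0.924 FPKM in the Th-low ones. The adrenal cortex gene Cyp11b1 did not exceed 0.0340 FPKM. The 8 matched adrenal cortex genes summed to 1.095 to 5.05 FPKM in the Th-high and 0.868 to 2.03 FPKM in the Th-low libraries. The chromaffin list as a whole summed to 6.98 to 46.4 FPKM in the Th-high libraries, with a median difference of 3.34 over 3 tested genes, but it shares Chga and Chgb with the granule list. These markers were picked after their values were known.

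Within the 6 Th-high libraries some neuronal genes kept their ratio to Th within a narrow range although Th itself ranged from 13.5 FPKM in AngII 7 to 107 in AngII 6. Per unit of Th, Dbh stood at 0.998 to 1.24, Npy at 1.34 to 1.98 and Hand2 at 0.212 to 0.246. Of 73 nerve genes tested, 37 stayed within a 2-fold range of ratios, Th included, whose ratio is 1 by construction. Of 22 glia genes 0 did. Ratios were taken for these lists only, so the share over all genes is not known. The filter also favoured members high with Th, for 42 of the 73 nerve and 4 of the 22 glia genes. The 2 counts therefore describe these members and show no trait of nerve genes. Slc6a2 was listed at 0.057 per unit of Th in NS 2 and 0.535 in AngII 9, with the limit on its level given above. Genes of Schwann cells did not follow Th: Cnp, an enzyme of myelinating glia, stood at 0.322 to 0.696 per unit of Th in 5 libraries and at 3.49 in AngII 7, and Prx, the scaffold protein periaxin of myelinating Schwann cells, at 0.0465 to 0.249 in 5 libraries and at 0.513 in AngII 7. Among the Th-high libraries AngII 7 thus had the least Th for its Cnp and Prx. High ratios also occurred in Th-low libraries with some Th. Per unit of Th, Cnp stood at 2.68 in AngII 8, 7.29 in AngII 10 and 5.79 in Lien 15. Prx stood at 0.226, 1.91 and 0.522 in the same libraries. The ratios describe libraries chosen by Th, the denominator, and were given no test.

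**Figure D3:**
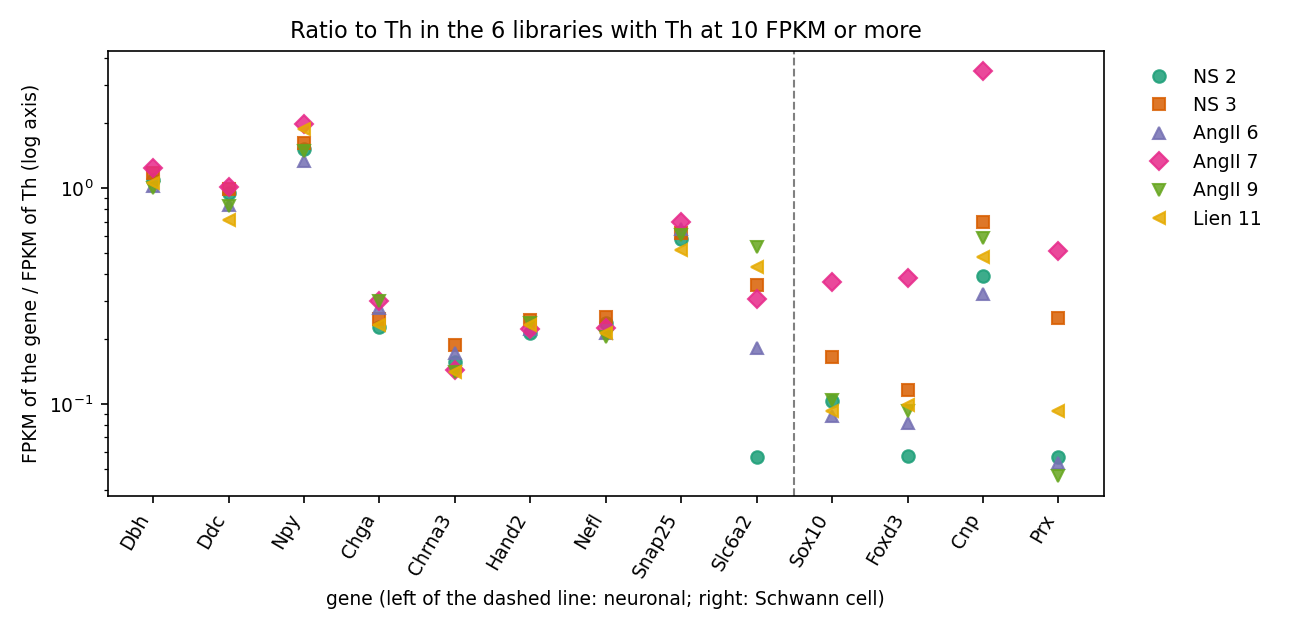
FPKM of each gene divided by FPKM of Th (vertical log axis, no unit) in the 6 Th-high libraries, one symbol per library, for 9 neuronal genes left of the dashed line and 4 Schwann cell genes right of it. The symbols nearly coincide for Dbh (0.998 to 1.24) and Hand2 (0.212 to 0.246), spread for Slc6a2 (0.057 to 0.535), and set AngII 7 apart for Sox10 (0.369) and Cnp (3.49).

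Schwann cell genes were higher in the Th-high libraries by less than neuronal genes. Of 11 myelinating Schwann cell genes 6 lay wholly above (median 1.16), and of 11 general Schwann and satellite glia genes 7 did (median 1.04). Cnp stood at 32.1 and 48.6 FPKM in NS 2 and NS 3, at 34.6, 47.0 and 50.4 in the AngII libraries 6, 7 and 9, and at 51.0 in Lien 11, against 9.32 to 16.8 FPKM (1.68, SE 0.17). Prx ran from 3.97 to 17.4 against 0.762 to 3.49 FPKM, highest in NS 3 (1.62, SE 0.33). Sox10, the transcription factor of the glial lineage, ran from 4.98 to 11.5 against 0.764 to 3.17 FPKM (1.86, SE 0.25). Fabp7 and Foxd3, which mark immature and satellite glia, differed by 2.65 (SE 0.26) and 2.13 (SE 0.21). S100b, made by Schwann cells and also by fat cells, did not differ by more than its error (0.00, SE 0.14), at 6.45 to 9.79 against 6.39 to 11.4 FPKM. NS 3, with the highest Prx, also held the most skeletal muscle RNA, and the part of that in its Schwann cell genes was not tested.

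Receptors through which noradrenaline and Npy act showed no common shift, with a median of -0.02 over 10 tested. The α2 receptors Adra2a and Adra2c, which also sit on sympathetic terminals and restrain release, lay wholly above, at 2.90 to 4.24 against 0.0447 to 1.75 FPKM and at 1.44 to 3.26 against 0.164 to 0.779 FPKM. They were picked out of that list because they were its 2 genes without overlap.

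Hox genes encode the position of a tissue along the body axis, low numbered paralogue groups towards the head and high numbers towards the tail, and adult mesenchymal cells such as fibroblasts and smooth muscle keep their embryonic Hox pattern. Posterior Hox genes were higher in the Th-high libraries. Of 16 listed genes of groups 9 to 13, 12 were matched in the table and 6 were abundant enough to be tested: these 6 had a median difference of 1.23, 4 exceeded 1 (7.42% of all genes did) and 3 lay wholly above. Of the 6, 4 reached the filter only with the help of the Th-high libraries, and over all 12 matched genes the median was 0.57. Hoxc10 stood at 3.89 and 12.02 FPKM in NS 2 and NS 3, 5.30, 6.71 and 5.87 in AngII 6, AngII 7 and AngII 9, and 5.17 in Lien 11. It was listed at 2.70 in AngII 10, 1.16 in Lien 15 and 0 to 0.299 FPKM in the other 7 Th-low libraries (2.29, SE 0.33). Hoxa9 ran from 3.32 to 6.17 against 0.628 to 1.90 FPKM and Hoxd9 from 3.67 to 5.95 against 0.660 to 3.36 FPKM, both without overlap. Hoxa10 overlapped because of Lien 11 (1.16 FPKM) and AngII 10 (2.71 FPKM), and Hoxb9 and Hoxd10 overlapped as well, at 1.01 to 1.79 against 0 to 1.15 and 0.214 to 1.66 against 0 to 0.628 FPKM. The remaining 6 matched genes were near 0 in most libraries, and Hoxc13 was listed at 0 in all 6 Th-high libraries. Hoxc9 was listed at 3.51 FPKM in Lien 11 and at no more than 0.0667 FPKM elsewhere.

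Among the tested genes the median difference was smaller in the central and anterior groups. Over all 12 matched posterior genes, however, the median given above was no larger than that of the central genes. The 8 genes of groups 6 to 8 had a median of 0.58 and none without overlap, the largest being Hoxc8 at 1.07 (SE 0.29) and Hoxd8 at 1.01 (SE 0.21). The 12 tested genes of groups 1 to 5 had a median of -0.10, with 4 higher and 8 lower. Hoxa4, Hoxb5 and Hoxc5 differed by -0.61 (SE 0.20), -0.48 (SE 0.15) and -0.50 (SE 0.13), and Hoxd4 by 0.86 (SE 0.16), the only tested Hox gene of groups 1 to 5 free of overlap. With quantile normalization and scaling to a common median the medians were 0.87 and 0.89 for the posterior, 0.25 and 0.24 for the central and -0.46 and -0.44 for the anterior genes. Relative to the median of all genes, which moved from 0.23 to -0.05 and -0.11, the 3 sets of tested genes thus kept their order.

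**Figure D4:**
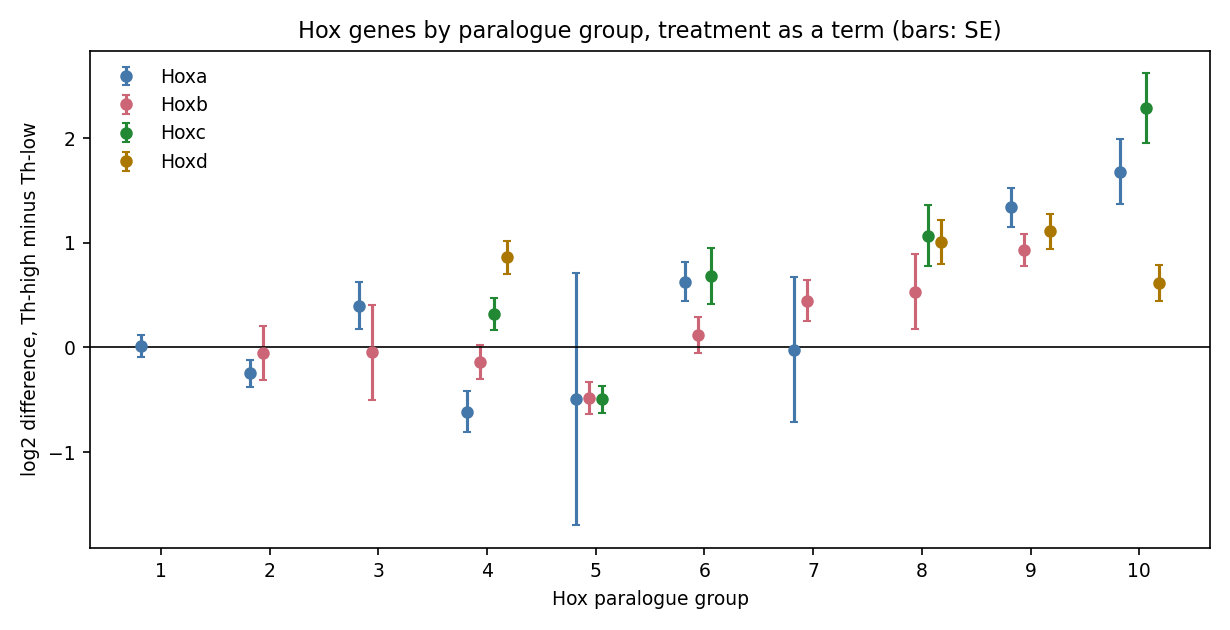
Difference between Th-high and Th-low libraries on log2(FPKM + 1), vertical axis, with treatment as a term, for each tested Hox gene by paralogue group on the horizontal axis, 1 at the head end; colours are the 4 clusters and bars are standard errors. Groups 9 and 10 lie between 0.61 (Hoxd10) and 2.29 (Hoxc10), while groups 1 to 5 lie on both sides of 0.

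Within the Th-high libraries posterior Hox levels did not run in step with Th. AngII 7 had the second highest Hoxc10 of all, 6.71 FPKM, with the lowest Th of its kind, 13.5 FPKM. AngII 8 had more Th, 6.25 FPKM, than AngII 10, 1.68 FPKM, but less Hoxc10, 0.299 against 2.70 FPKM. Averaged over the 12 matched posterior genes, log2(FPKM + 1) ran from 0.882 to 1.40 in the Th-high libraries. The Th-low libraries with the most Th had the highest Th-low means. These were 0.734 in AngII 10, 0.465 in Lien 15 (Th 2.01 FPKM) and 0.425 in AngII 8. The remaining Th-low libraries, with Th of at most 0.487 FPKM, ran from 0.159 to 0.306.

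Cardiomyocyte genes were lower in the Th-high libraries. All 13 tested genes had a negative difference, with a median of -2.46, and 10 were lower by more than 1 where 0.885% of all genes were. Of the 13, 4 reached 0.5 FPKM in no Th-high library and so entered through the Th-low ones. None of the 13 lay wholly below, since AngII 10 and Lien 15, which are Th-low, were as low. Myl7, an atrial myosin light chain, was listed at 0 in 5 of the Th-high libraries and at 0.216 FPKM in AngII 9. In the Th-low libraries it stood at 195, 39.5 and 286 FPKM in NS 1, NS 4 and NS 5, at 186 in AngII 8 and 0 in AngII 10, and at 24.5, 44.0, 15.7 and 0.550 FPKM in Lien 12 to Lien 15. Nppa, the atrial natriuretic peptide, was listed at 0 in all 6 Th-high libraries, and in the Th-low libraries at 0 in AngII 10, 0.0653 FPKM in Lien 15 and 4.47 to 295 FPKM in the other 7. Myh6, a myosin heavy chain of heart muscle, did not exceed 0.451 FPKM in the Th-high libraries and reached 338 FPKM in NS 5. Actc1 of the same list was not near 0 in the Th-high libraries. It stood at 57.8 FPKM in NS 3 and 5.57 to 9.13 FPKM in the rest of them, against 2.22 to 369 FPKM in the Th-low libraries. Nkx2-5, a transcription factor of heart muscle too low to be tested, was listed at 0 in all 6 and reached 2.38 FPKM in NS 5. Factors of the heart and limb fields showed little difference (median -0.13 over 3 tested), with Tbx5, a factor of atrium and forelimb, at 0 to 0.944 against 0.371 to 1.98 FPKM.

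Most brown fat genes were lower in the Th-high libraries, above all in Lien 11 and NS 3. Of 14 tested genes 10 were lower, 9 of them by more than 1, and 4 were higher, by at most 0.35, with a median of -1.24. The list means overlapped, at 4.68 in AngII 9, which is Th-high, and 4.66 in AngII 10, which is Th-low. The genes named below are among the lower ones. Cidea, a lipid droplet protein of brown fat, lay wholly below: it stood at 479.6 and 294 FPKM in NS 2 and NS 3, 623, 609 and 711 in AngII 6, AngII 7 and AngII 9, and 177 in Lien 11, against 802 to 1178 FPKM. Ucp1, the mitochondrial uncoupling protein of thermogenesis, stood at 803, 249.7, 543, 498, 359 and 143 FPKM in the same 6 libraries and at 613 to 1921 FPKM in the others, with overlap because of NS 2 and AngII 8 (log2 difference -1.73, SE 0.39). Fabp3 and Cox7a1, a fatty acid carrier and a cytochrome oxidase subunit of oxidative tissues that heart muscle also makes, differed by -1.45 (SE 0.41) and -1.47 (SE 0.44). Within NS and within AngII alone Cidea differed by -1.28 and -0.59. Lien 11 weighed on this list, whose median was -0.79 without it.

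White fat genes differed less, with a median of -0.08 over 11, below the 0.23 of all genes. Of the 11, 4 were higher and 7 lower. Retn, the adipokine resistin, was the only 1 wholly above, at 110.1 to 152 against 51.8 to 93.6 FPKM. Cfd, adipsin, overlapped at 3798 to 6391 against 1822 to 4885 FPKM, and Pnpla2 at 374.6 to 796 against 694 to 1189 FPKM. Fatty acid synthesis genes had a median of -0.54, with 8 of 10 lower, and of -0.26 without NS 3. Elovl6, a fatty acid elongase, lay wholly below at 10.8 to 31.0 against 35.2 to 71.4 FPKM, and Fasn, fatty acid synthase, overlapped at 85.1 to 230.4 against 99.7 to 397 FPKM.

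Among genes free of overlap with a mean of at least 1 FPKM, the 12 largest differences above included Npy, Dbh, Tubb3, Th, Prph, Ddc, Snap25, Stmn3, Pcsk1n, Gap43 and Ngfr, from 5.47 down to 4.10, and 11 of them belong to the nerve lists. Pcsk1n, a granule protein of neuroendocrine cells, is the one outside them, at 7.88 to 47.9 against 0 to 3.89 FPKM. The nerve lists hold 73 of the 15586 genes tested. Th chose the libraries and is itself in this ranking, so the place of nerve genes in it is a description and supports nothing further. Among the genes lying wholly below, the 12 largest differences ran from -1.79 for Aspg to -1.21 for Cabcoco1, a ranking that leaves out overlapping genes such as those of cardiomyocytes. They included Gpd1 and Gpd2, the enzymes of the glycerol phosphate shuttle (-1.40 and -1.30), Dgat2, which completes triglyceride synthesis (-1.30), and the mitochondrial enzymes Sucla2 and Acaa2 (-1.26 and -1.25). Gpd1 ran from 133 to 359.9 FPKM in the Th-high and from 429.6 to 908 FPKM in the Th-low libraries.

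Other tissue also differed between the libraries. T cell genes had a median difference of 2.04 and B cell genes of 1.59 over 12 and 9 tested genes, all higher. Their summed levels ran from 13.6 to 226 and 13.3 to 229 FPKM in the Th-high and from 3.26 to 19.6 and 2.56 to 23.4 FPKM in the Th-low libraries, with overlap for every gene. The lymphatic genes Ccl21a and Flt4 lay wholly above, Ccl21a at 39.1 to 434 against 1.12 to 16.9 FPKM. Fast skeletal muscle genes averaged 8.74 and 6.01 on log2(FPKM + 1) in NS 3 and AngII 9 and no more than 2.45 in any other library. AngII 9 also held liver RNA, with albumin (Alb) at 838 FPKM against at most 8.57 elsewhere. Mitochondrial transcripts held 5.18% to 17.5% of the summed FPKM in the Th-high and 8.01% to 22% in the Th-low libraries. Without NS 3 and AngII 9 the medians were 3.34 for noradrenaline genes, 1.15 for posterior Hox genes, -1.17 for brown fat genes and -2.55 for cardiomyocyte genes, close to those above, while fatty acid synthesis genes came to -0.28. The part of lymphatic, immune and mitochondrial RNA in the differences was not tested.

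**Figure D5:**
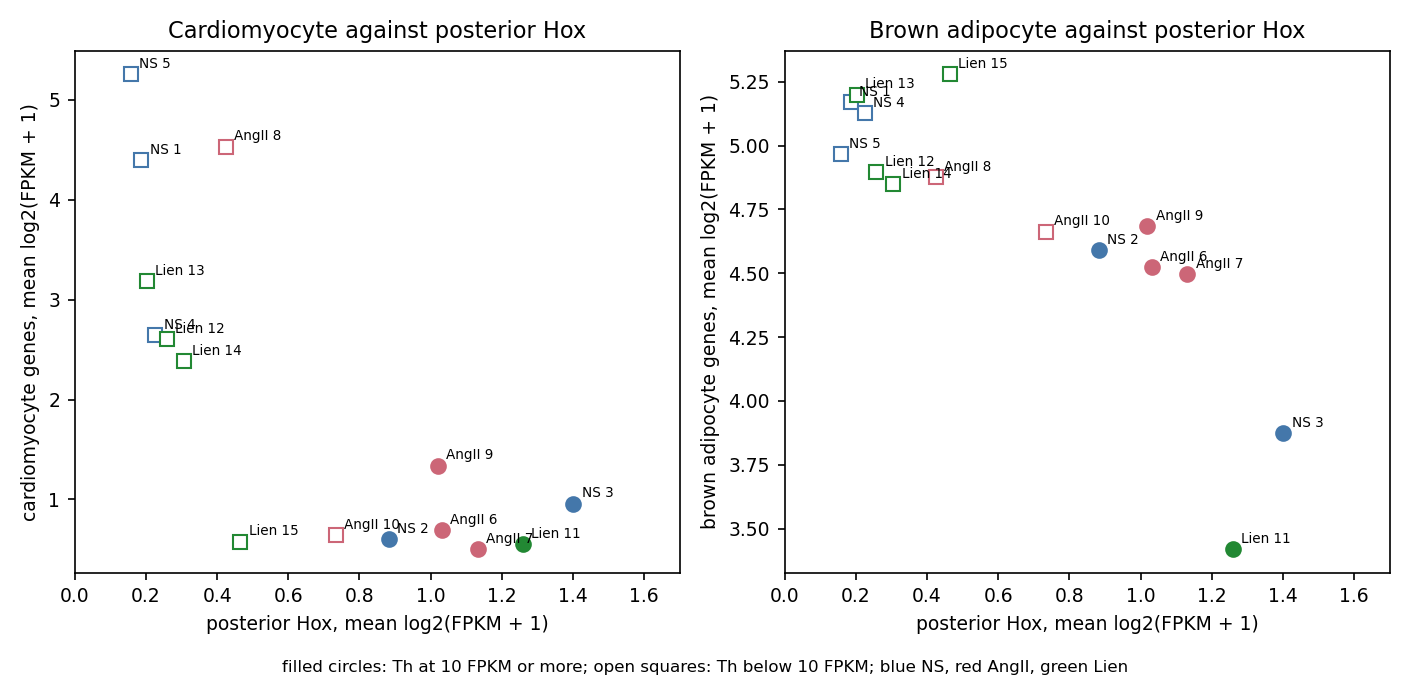
Mean log2(FPKM + 1) of cardiomyocyte genes (left panel, vertical axis) and brown adipocyte genes (right panel, vertical axis) against that of 12 posterior Hox genes (horizontal axes) in each library; filled circles are Th-high, open squares Th-low, blue NS, red AngII and green Lien. No library combines a posterior Hox mean above 0.5 with a cardiomyocyte mean above 1.34, limits that were read off these same points. Lien 15 and AngII 10 are low in both Th and cardiomyocyte genes.

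The 3 treatment comparisons ask what changed in AngII and in Lien, and were tested with limma over all 15 libraries. Th, Dbh and Ngfr did not pass in any of them. Th had a log2 difference of 1.72 (SE 1.65, limma adjusted p = 0.798) between AngII and NS, -2.48 (SE 1.65, limma adjusted p = 0.740) between Lien and AngII, and -0.77 (SE 1.65, limma adjusted p = 0.970) between Lien and NS. Among the nerve, glia, Hox, fat and heart lists no member passed in any of the 3 comparisons, with or without the Th class, where 0.077% (12), 0.0128% (2) and 0.231% (36) of all genes were called between AngII and NS, Lien and AngII, and Lien and NS. None of the following passed the test. Without the Th class, all 7 genes of noradrenaline synthesis and uptake were lower in Lien than in AngII (median -1.61). So were all 8 of the cotransmitter list (median -1.18) and all 6 posterior Hox genes (median -0.58). AngII had 3 Th-high libraries and Lien 1, and the median of all genes was -0.134. With the Th class these lists had 6 of 7 genes lower (median -0.234), 1 of 8 (median 0.11) and 4 of 6 (median -0.238). Without the Th class, cardiomyocyte genes differed by a median of -1.69 between AngII and NS (9 of 13 lower). Between Lien and NS the median was -1.16 (12 of 13 lower). With the Th class these medians were -0.994 and -1.66. NS had 3 Th-low libraries, AngII 2 and Lien 4, and the part of this split in the differences was not tested. Brown fat genes had medians, without the Th class, of -0.0124 between AngII and NS and 0.0574 between Lien and AngII.

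With the Th class as a second term, 26 genes (0.167%) were called between AngII and NS, 2 (0.0128%) between Lien and AngII and 55 (0.353%) between Lien and NS. All 12, 2 and 36 genes called without that term were called again. Of the 14 genes added between AngII and NS, 4 had the largest differences and were picked by their values. Slc25a25, a mitochondrial carrier, fell (-1.51, SE 0.27, limma adjusted p = 0.044), from 11.1 to 30.0 FPKM in NS to 5.52 to 14 in AngII, the highest of these in AngII 9. Tsc22d3, a glucocorticoid-induced regulator, rose (1.21, SE 0.19, limma adjusted p = 0.0396), from 25.8 to 67.1 FPKM to 73.1 to 139.0 FPKM, without overlap. Ptger4, a prostaglandin E2 receptor, and B3galt2, a galactosyltransferase, fell (-1.11 and -1.10, limma adjusted p = 0.041 for both), Ptger4 from 7.36 to 11.6 FPKM to 2.81 to 5.75 FPKM. Without the Th class these genes did not pass, with differences of -1.42 for Slc25a25, 1.34 for Tsc22d3 and -1.03 for Ptger4.

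The counts rest on single libraries. Leaving out any 1 library gave 1 to 17 calls between AngII and NS with treatment alone and 1 to 34 with the Th class, and 11 to 36 and 25 to 53 between Lien and NS. With the Th class, 1 call between AngII and NS was left without NS 1, NS 2, NS 4 or AngII 8, 4 without AngII 6, AngII 9 or AngII 10, 9 without Lien 12, 11 without AngII 7, 14 without NS 3, 15 without Lien 11 and 17 without NS 5. Between Lien and NS with treatment alone, 11 calls were left without NS 2, 16 without Lien 14, 18 without NS 1, 20 without Lien 13 and 23 without NS 4. Among the 9 Th-low libraries alone, 0 genes were called between AngII and NS with limma (1015 at an unadjusted p under 0.05), 3 between Lien and AngII and 10 between Lien and NS. Those fits have 2 AngII libraries.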

How the data were processed

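RNA sequencing of 15 libraries (3 groups of 5) was deposited as 1 table of 131437 transcripts. The unit is not stated in header or labels; the deposited values were taken for FPKM because they are decimals per transcript whose library totals lie between 477095 and 569546. Per the labels' protocols, ribosomal RNA was depleted. The sources used here do not give the aligner, quantifier, genome build or strand setting. The submitters' processing notes name limma, without version or role. No fragment counts are given, so depth is unknown and no counting interval was computed.

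Of 101208 Ensembl transcripts 99965 matched GENCODE M21 (GRCm38) and were summed to 32930 genes; 30229 assembled transcripts without public identifier, 11.0% to 17.0% of the sum, stayed out, as did unmatched ones. Th had 2 of its 6 annotated transcripts in the table. Genes with at least 0.5 FPKM in 5 or more libraries (15586) were kept and analysed as log2(FPKM + 1), so fold changes of low genes are understated.

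Th-high and Th-low libraries were compared by a linear fit with treatment group as a term, giving a difference with its SE and no p-value, and by counting genes whose values do not overlap. Treatment comparisons used limma 3.58.1 (R 4.3.3; trend and robust options, two-sided, Benjamini-Hochberg over 15586 genes, threshold 0.05), whose p-values measure the spread between libraries, which may be technical. Tests were checked on simulated data. Sums and linear fits ran in Python 3.11.15 with numpy 2.4.6 and pandas 2.3.3, and plots in matplotlib 3.10.9.

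Of 369 listed genes in 39 lists 361 matched and 281 passed the filter; the others are given by their values only. Named genes are Th, Dbh and Ngfr, per list the 4 with the highest mean and the 4 with the largest difference, the 12 largest differences in each direction among genes free of overlap with a mean of at least 1 FPKM (no pseudogenes, receptor segments or clone names), and any Hox gene; some are not reported here. The libraries, lists and rules were chosen with earlier results of these data known. Alternatives changed the Th threshold, pseudocount, filter, scaling, covariate and libraries. No column was left unused.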

Additional observations from a re-analysis of the deposited data

Results flagged for a closer look

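Each gene list was averaged on log2(FPKM + 1) per library, and within each group of 5 a library was marked where its gap to the nearest other library was a large share of the group's range (Dixon's 95% value). Chance marks about 1 in 20 groups where lists are independent and libraries were not chosen by their values. Neither condition held here. The libraries were classed by Th, a member of the noradrenaline list, and the nerve lists rose together in the same libraries. The 29 of 117 groups marked are therefore a description and cannot be compared with that rate.

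Lien 11, the only Th-high library of its group, was the highest Lien library for noradrenaline synthesis (5.65, next 1.63), sympathetic transcription factors (2.27, next 0.57), cotransmitters and granules (4.43, next 0.49), nicotinic receptors (2.25, next 0.26), growth factor receptors (3.77, next 1.87), neuronal cytoskeleton (4.12, next 0.95), vesicle release (4.24, next 1.25), ion channels (2.03, next 0.63), myelinating Schwann cells (3.2, next 1.74), general glia (2.96, next 1.68), sensory neurons (0.64, next 0.21), cholinergic neurons (0.64, next 0.1), chromaffin cells (1.95, next 0.45, a list that shares Chga and Chgb with the granule list), adrenal cortex (0.28, next 0.17), posterior Hox (1.26, next 0.47), T cells (2.25, next 0.85), B cells (2.7, next 0.85) and pancreas (0.81, next 0.03). It was the lowest for brown fat (3.42, next 4.85).

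AngII 8, a Th-low library, was the highest AngII library for cardiomyocytes (4.53, next 1.34), heart and limb field factors (1.01, next 0.49) and mesothelium (2.09, next 0.88). AngII 9 was the highest for skeletal muscle (6.01, next 1.99), liver (6.58, next 1.0) and adrenal cortex (0.58, next 0.19). NS 3 was the highest NS library for skeletal muscle (8.74, next 2.45) and cholinergic neurons (0.88, next 0.14), and NS 2 for T cells (2.96, next 0.99) and thymocytes (0.77, next 0.2).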

How the results depend on the processing

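No paired analysis was possible because the replicate numbers run from 1 to 15 and no number occurs in more than 1 group. Depth is unknown, so no limit from counting error can be given. The cause of the changes below was not tested, save where fewer libraries or genes enter by construction.

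With a Th threshold of 5 FPKM, 730 genes lay wholly above and 23 wholly below, and with 20 FPKM 28 lay wholly below. With a pseudocount of 0.1, 2247 and 289 genes passed a 2-fold difference above and below, and list medians came to 5.54 for noradrenaline genes, 3.56 for transcription factors, 5.57 for cotransmitters, 3.14 for nicotinic receptors, 1.59 for growth factor receptors, 4.12 for cytoskeleton, 4.05 for vesicle release, 2.96 for ion channels, 1.75 for myelinating and 1.93 for general glia, 5.50 for chromaffin cells, 2.08 for posterior and 1.04 for central Hox genes, -1.74 for mesothelium, 2.91 for T cells and 2.72 for B cells. Without a filter the medians were 1.30 for transcription factors, 0.291 for chromaffin cells and 0.57 for posterior Hox genes.

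After quantile normalization 485 and 431 genes lay wholly above and below, 657 and 281 passed 2-fold, and the median of all genes was -0.0538. List medians were 0.842 for growth factor receptors, -0.351 for their ligands, 1.02 for ion channels, 0.668 for general glia, -0.305 for adrenergic and NPY receptors, 0.872, 0.255 and -0.465 for posterior, central and anterior Hox genes and -0.461 for heart and limb factors. After scaling to a common median the counts were 356 and 712, and 619 and 453, and the median of all genes was -0.108. List medians were 1.25 for nicotinic receptors, 0.863 for growth factor receptors, -0.347 for ligands, 1.02 for ion channels, 0.702 for general glia, -0.357 for adrenergic and NPY receptors, 0.888, 0.244 and -0.437 for the Hox sets, -0.463 for heart and limb factors, -0.422 for white fat, -0.879 for fatty acid synthesis and -0.0185 for endothelium, which reversed.

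In alternatives chosen after seeing the data, general glia had a median of 1.35 without AngII 7 and AngII 8, and 153 genes lay wholly below without NS 3 and AngII 9. Leaving out each library gave 99 to 236 genes wholly below and 115 to 224 below by 2-fold, and medians of -0.611 to -0.261 for fatty acid synthesis, -0.234 to 0.0768 for adrenergic and NPY receptors, -0.401 to -0.0026 for heart and limb factors and -1.41 to -0.79 for brown fat.

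Calls between AngII and NS numbered 2 without a filter, 23 after quantile normalization, 6 after scaling to a common median, 7 without NS 3 and AngII 9, 26 with the Th class, 27 and 19 with the Th class and quantile or median scaling, and 0 with limma in Th-low libraries alone (1015 at an unadjusted p under 0.05) or without AngII 7 and AngII 8 (710 at an unadjusted p under 0.05). Between Lien and AngII there was 1 call under either scaling, with or without the Th class, and without AngII 7 and AngII 8. Between Lien and NS there were 23 without a filter, 18 without NS 3 and AngII 9, 55 with the Th class, 68 and 64 with it and either scaling, and 10 in Th-low libraries alone. Leaving out each library gave 1 to 34, 1 to 3 and 11 to 53 calls over both fits.

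Between Lien and NS, Th and Dbh reversed to 0.273 and 0.221 with the Th class, 0.468 and 0.45 in Th-low libraries, 0.133 and 0.107 without NS 3 and AngII 9, 0.252 and 0.215 with the Th class and quantile normalization, and 0.265 and 0.213 with it and median scaling. Ngfr between AngII and NS reversed to -0.147 with log2(Th + 1) as the term. Over fits leaving out 1 library, with or without the Th class, the difference ran for Th from 0.0861 to 2.67 between AngII and NS, from -3.73 to 0.281 between Lien and AngII and from -2.01 to 0.45 between Lien and NS. The same ranges were 0.0484 to 2.71, -3.83 to 0.277 and -2.08 to 0.407 for Dbh and -0.169 to 1.94, -3.12 to 0.204 and -1.92 to 0.114 for Ngfr.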

Other observations

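Assembled transcripts, which carry no gene name, also differed between the libraries: of 11194 that passed the same filter, 95 (0.849%) lay wholly above and 18 (0.161%) wholly below in the Th-high libraries, where annotated genes gave 8.14% and 0.622%. Both shares depend on how abundant and how variable the features are, and the difference was not tested.

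Hoxa5 was listed at 11.3 to 22.1 FPKM in 6 libraries (NS 1, AngII 7, AngII 10, Lien 11, Lien 12 and Lien 13) and at 0.00796 to 0.287 FPKM in the other 9, a split that followed neither the treatment groups nor Th. Krt5, a keratin of squamous epithelium, was listed at 14.1 FPKM in NS 3 and at no more than 0.0737 FPKM in any other library.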
